A study of Mus musculus with 32 samples.

Results

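The caveolae coat genes Cav1, Cav2, Cavin1, Cavin2, Cavin3 and Ehd2 are 6 of the 54429 gene symbols in the merged count table of this study, and their rows were taken by symbol. All 6 passed the filter on low counts, which left 15254 genes. The set was chosen by measured values, the lower Cav2 counts after Dnmt1 silencing in these same libraries, so every difference between the siRNAs is given for these genes as a description with no test, while their responses to cytokines were tested.

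Caveolae are small pits of the plasma membrane that are abundant in endothelial cells (ECs), where they buffer membrane tension, hold signalling proteins and take part in uptake. Caveolins are hairpin proteins that sit in the inner leaflet: Cav1 encodes the principal one, without which ECs form no caveolae, and Cav2 encodes a partner that oligomerises with it. Cavins bind from the cytosol: Cavin1 is required for the coat, Cavin2 helps to shape the membrane, and Cavin3 joins the same complex. Ehd2 encodes an ATPase that forms a ring at the neck of the pit and holds it at the surface.

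Libraries were made from Veravec, a line of mouse lung ECs, after 2 rounds of transfection with a control siRNA (si-control) or an siRNA against Dnmt1 (si-dnmt), the gene of the maintenance DNA methyltransferase. Cells then received no cytokine, TNF (TNFα, 10 ng/mL), IFN (IFNγ, 1000 U/mL) or TNF + IFN for 16 h, and the doses are stated for each cytokine on its own. Each of the 8 groups (si-control, si-control + TNF, si-control + IFN, si-control + TNF + IFN, and the same with si-dnmt) held 4 libraries, 32 in all. Every library, controls included, is from transfected cells of 1 line; the labels call the replicates biological without naming separate cultures, so p-values measure the spread between these samples, which may be technical.

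Total counts ranged from 17362546 to 33500030 per library, with a median of 20859668. Dnmt1 lay between 86.5 and 211 CPM (counts scaled to library size) in the 16 si-control libraries and between 5.11 and 17.3 CPM in the 16 si-dnmt libraries. The endothelial marker Cdh5 lay between 847 and 2880 CPM and Pecam1 between 646 and 2166 CPM. The lowest endothelial markers were Cldn5, at 0.111 to 38.8 CPM, and Vwf, at 0.789 to 58.9 CPM. The epithelial marker Sftpc, the adipocyte marker Adipoq and the T-cell marker Cd3e had no count in any library. Krt18 (epithelial) lay at 3.21 to 23.2 CPM, Fabp4 (adipocyte) at 23.5 to 1276 CPM and Cd68 (leukocyte) at 50.1 to 217 CPM. The other genes of the epithelial, adipocyte and leukocyte lists had at most 5 counts in a library. Of the lymphatic list, Lyve1 lay at 161 to 596 CPM, Pdpn at 93.4 to 212 CPM and Prox1 at no more than 2.57 CPM. In every group replicates 1 and 2 stood apart from replicates 3 and 4, and the labels do not say what separates these replicate sets. Results that rest on both sets are therefore also given within each set.

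The members differ in the CpG content of the sequence before their start sites, the dinucleotide that DNA methyltransferases act on. RefSeq (GRCm38.p6) gave a promoter for 5 of the 6 members, at 7 start sites. Over the 250 bases before the start, CpG was counted on the printed strand. Cav2 and Cav1, which lie side by side on chromosome 6, and Cavin2 are shown because Cav2 had the largest difference between the siRNAs, Cav1 is its partner, and Cavin2 was the 1 member whose fitted difference was positive in all 4 states. CpG dinucleotides are in capitals.
Cav2, chr6:17280935-17281184, + strand: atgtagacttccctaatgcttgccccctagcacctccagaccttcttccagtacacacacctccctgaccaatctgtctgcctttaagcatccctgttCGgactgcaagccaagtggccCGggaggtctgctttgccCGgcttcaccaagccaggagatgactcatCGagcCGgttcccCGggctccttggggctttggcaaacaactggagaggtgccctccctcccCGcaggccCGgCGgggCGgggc
Cav1, chr6:17306085-17306334, + strand: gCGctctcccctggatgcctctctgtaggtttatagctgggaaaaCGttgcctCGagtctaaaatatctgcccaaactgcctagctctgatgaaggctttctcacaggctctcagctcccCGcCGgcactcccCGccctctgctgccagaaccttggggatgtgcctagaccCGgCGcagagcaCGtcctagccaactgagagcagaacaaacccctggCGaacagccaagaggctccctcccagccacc
Cavin2, chr1:51288876-51289125, + strand: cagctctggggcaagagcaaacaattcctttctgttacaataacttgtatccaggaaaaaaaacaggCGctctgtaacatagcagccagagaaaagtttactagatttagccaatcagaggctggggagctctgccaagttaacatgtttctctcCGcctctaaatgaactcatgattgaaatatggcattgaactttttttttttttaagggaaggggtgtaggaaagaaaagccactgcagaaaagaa

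The Cav2 window held 10 CpG, as did the first Cav1 window, while the second Cav1 start and the Cavin1 and Ehd2 starts had 12 each. The Cavin2 window held 2. Across all 32851 RefSeq start sites the median was 6, 37.8% had as many as Cav2 or more, and 81.2% had as many as Cavin2 or more. A GC box (GGGCGG, either strand) was found before Cav2, Cavin1, Ehd2 and the first Cav1 start, and in 32.7% of all windows. Methylation was not measured here, and a match describes letters only.

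Per kilobase of exon, Cav1 had the highest level of the coat genes in si-control without cytokine, at 297 ± 85.3 CPM per kb (SD, n = 4). Cavin1 followed at 204 ± 45.0 CPM per kb, Ehd2 at 116 ± 8.87, Cavin2 at 93.7 ± 37.6, Cav2 at 62.3 ± 14.3 and Cavin3 at 26.5 ± 4.57. With the longest transcript as the length the order was the same and Cav1 stood at 372 CPM per kb. All further levels are CPM, not divided by length, so they compare 1 gene between groups.

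**Figure D1:**
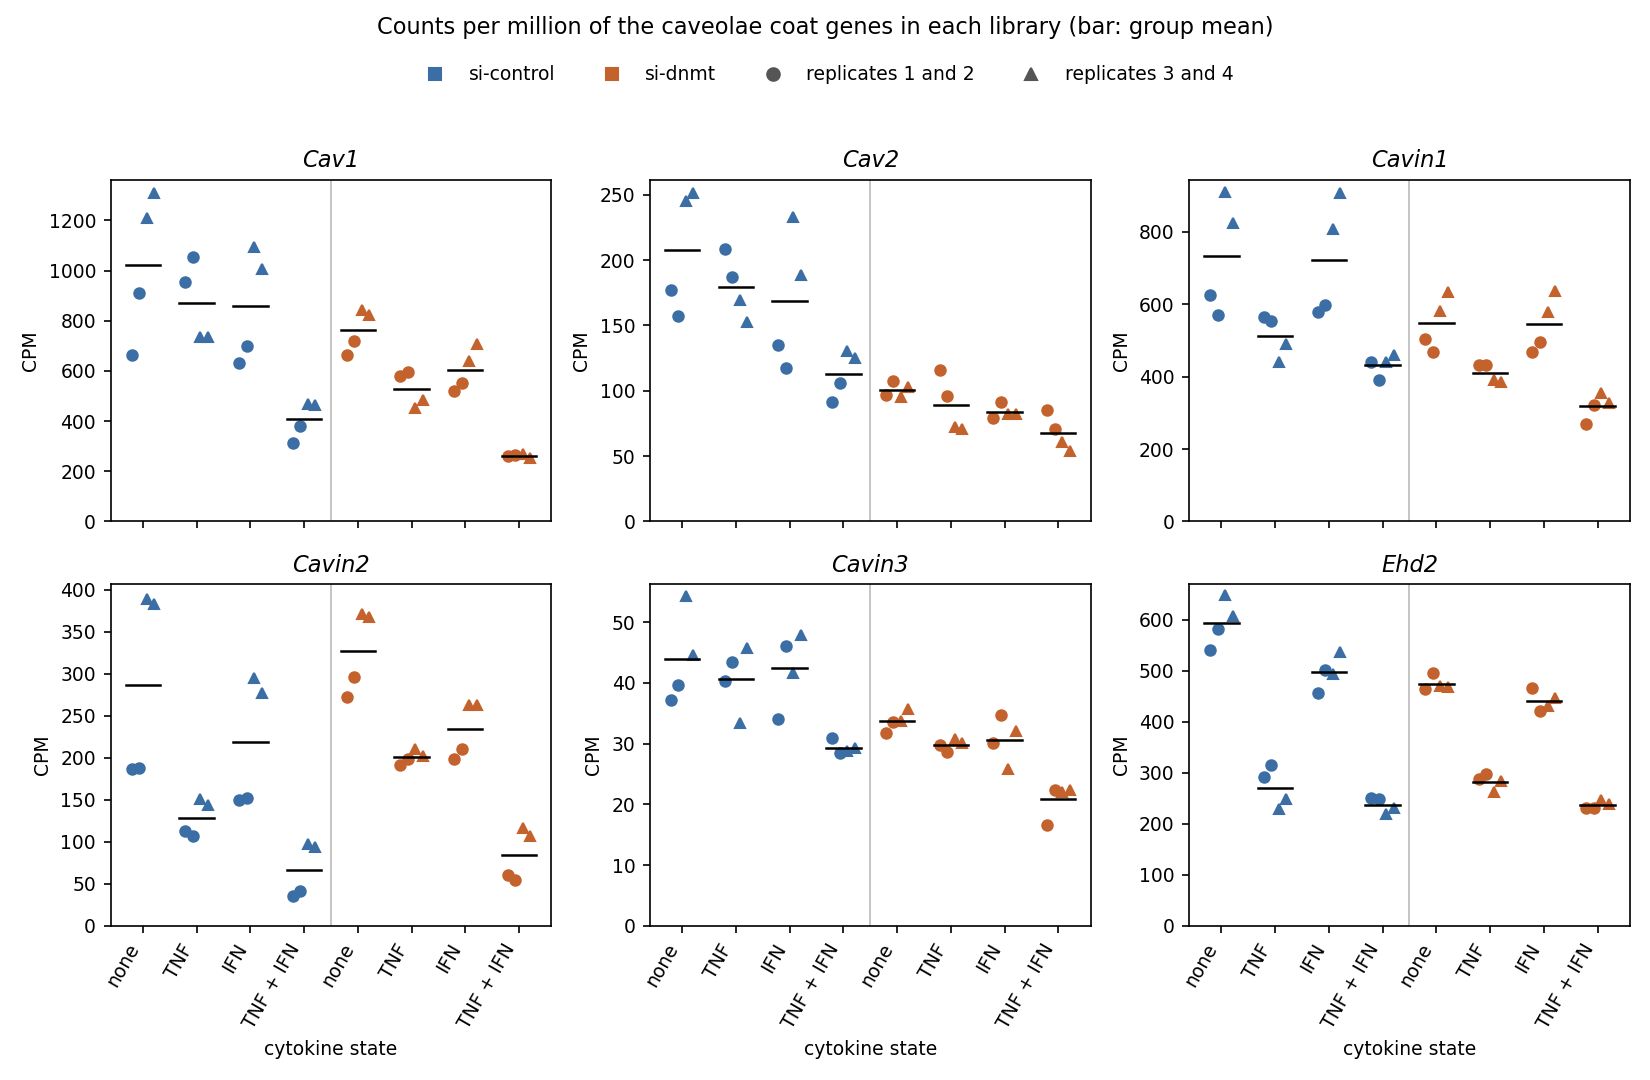
CPM (y axis, from 0) of each caveolae coat gene in the 32 libraries, by cytokine state (x axis), with si-control in blue on the left of each panel and si-dnmt in orange on the right. Circles are replicates 1 and 2, triangles are replicates 3 and 4, and bars are means of 4 libraries; the lowest group mean was that of si-dnmt + TNF + IFN for Cav1, Cav2, Cavin1 and Cavin3, Cavin2 was lowest in si-control + TNF + IFN, and Ehd2 stood at 237 CPM in both groups with TNF + IFN.

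Cav2, the gene that led to this set, was lower in si-dnmt than in si-control in all 4 cytokine states, and the libraries of the 2 siRNAs did not overlap in any of them. Without cytokine the si-control libraries had 177, 157, 245 and 252 CPM (replicates 1 to 4) and the si-dnmt libraries 96.7, 108, 95.1 and 103 CPM. With TNF they had 208, 187, 169 and 153 CPM against 116, 96.2, 72.2 and 70.7 CPM. The highest si-dnmt library of these 2 states stayed under the lowest si-control one. With IFN the values were 135, 117, 233 and 188 CPM against 79.5, 91.5, 82.4 and 82.4 CPM. With TNF + IFN they were 91.3, 106, 131 and 125 CPM against 85.0, 71.1, 60.7 and 53.8 CPM, the narrowest gap between the siRNAs. The fitted log2 difference was -1.05 ± 0.19 (SE) without cytokine, -1.01 ± 0.19 with TNF, -1.01 ± 0.19 with IFN and -0.74 ± 0.19 with TNF + IFN. Without cytokine this is a Cav2 level 51.6% lower in si-dnmt.

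The size of that Cav2 difference was not the same in the replicate sets, although its sign was. Within replicates 1 and 2 the log2 difference was -0.70 without cytokine, -0.90 with TNF, -0.57 with IFN and -0.34 with TNF + IFN. Within replicates 3 and 4 it was -1.33, -1.17, -1.36 and -1.16 in the same order. In si-dnmt without cytokine the 4 libraries spanned 95.1 to 108 CPM, so the sets differed mainly in si-control, at 177 and 157 against 245 and 252 CPM. Leaving out any 1 library moved the difference to between -1.16 and -0.94 without cytokine.

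Cav1 was also lower in si-dnmt by its group means, but its libraries overlapped in 2 of the 4 states. Without cytokine it had 662, 912, 1209 and 1309 CPM in si-control and 662, 720, 844 and 825 CPM in si-dnmt. With IFN it had 631, 700, 1092 and 1006 CPM against 520, 551, 641 and 706 CPM. In these 2 states the upper si-dnmt libraries reached into the range of si-control. With TNF the values were 953, 1054, 736 and 736 CPM against 581, 594, 454 and 485 CPM. Under TNF + IFN the 4 si-control libraries held 315, 380, 468 and 465 CPM against 260, 265, 271 and 253 CPM. The siRNAs were apart in these states. The fitted log2 differences of Cav1 ran from -0.42 ± 0.18 without cytokine to -0.72 ± 0.19 with TNF.

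The cavins did not share 1 pattern between the siRNAs. Cavin1, which the coat requires, had log2 differences between -0.45 ± 0.15 with TNF + IFN and -0.32 ± 0.15 with TNF. Cavin3 lay between -0.49 ± 0.12 and -0.38 ± 0.12. Cavin2 went the other way, with fitted values of 0.19 ± 0.30 without cytokine, 0.64 ± 0.30 with TNF, 0.10 ± 0.30 with IFN and 0.34 ± 0.30 with TNF + IFN. That sign was carried by replicates 1 and 2, where it was 0.62 without cytokine and 0.43 with IFN, against -0.06 and -0.12 in replicates 3 and 4. With TNF and with TNF + IFN it was positive in both sets. Ehd2, the neck ATPase, had -0.32 ± 0.08 without cytokine and 0.06 ± 0.08, -0.17 ± 0.08 and 0.00 ± 0.08 with TNF, IFN and TNF + IFN.

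Counted by library, 3 of the 6 members (Cav2, Cavin3 and Ehd2) lay wholly lower in si-dnmt without cytokine, against 10.1% of all genes tested. With TNF this held for 4 (Cav1, Cav2, Cavin1 and Cavin3; 11.2% of all genes), with IFN for Cav2 alone (10.1%) and with TNF + IFN for the same 4 as with TNF (10.9%). Cavin2 with TNF was the 1 case that lay wholly higher, as did 11.5% of all genes. Since the set was chosen for this contrast, nothing is read from these counts. The summed level of 6 pericyte and smooth muscle markers, mostly Acta2, moved with the siRNA: without cytokine it was 8.03 to 27.7 CPM in si-control and 41.9 to 200 CPM in si-dnmt. It was 10.4 to 29.4 against 70.4 to 153 CPM with TNF, 19.5 to 67.1 against 83.0 to 240 CPM with IFN and 16.8 to 60.2 against 55.3 to 129 CPM with TNF + IFN, where the ranges met. Of this list the pericyte marker Rgs5 had at most 1 count in a library. The part of these transcripts in the differences was not tested. In bulk RNA, fewer cells of a type and less RNA per cell cannot be told apart.

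**Figure D2:**
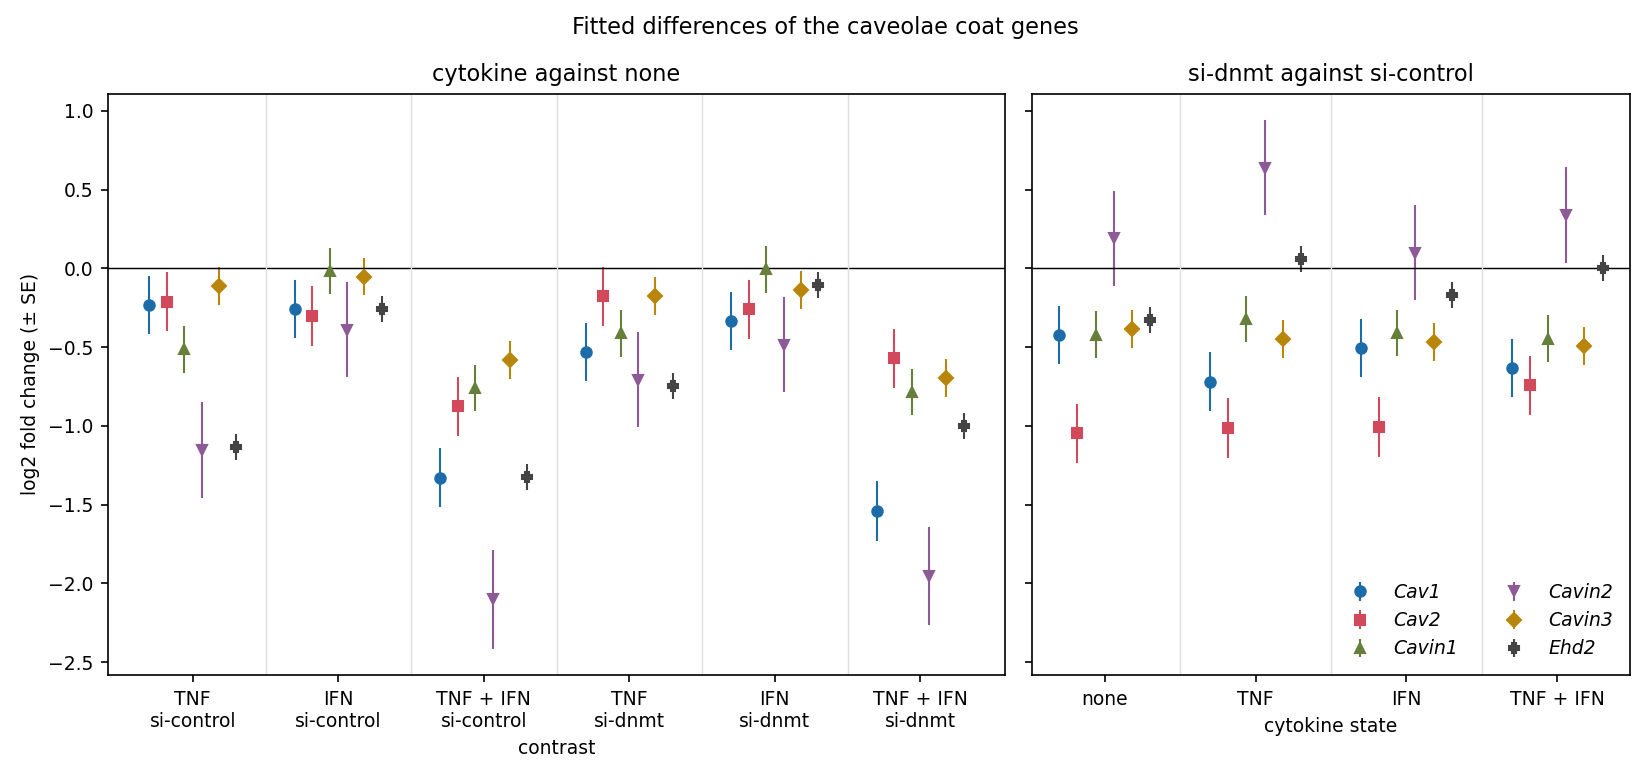
Fitted log2 fold changes (y axis, ± SE) of the 6 coat genes for each cytokine treatment over no cytokine, by siRNA (left) and for si-dnmt against si-control in each cytokine state (right). All 6 genes lie below 0 with TNF + IFN under both siRNAs, Cavin2 lowest at -2.10 and -1.95, and in the right panel Cav2 is lowest in every state.

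With TNF + IFN the transcripts of the whole coat fell. Only RNA was counted here, and neither coat proteins nor caveolae were measured. In si-control all 6 members were called lower against no cytokine (edgeR's quasi-likelihood test, Benjamini-Hochberg adjusted p under 0.05), a call made for 21.6% of all genes tested, and in si-dnmt all 6 were called lower as well, against 18.9% of all genes. None of the members' 4 libraries with TNF + IFN overlapped the 4 without cytokine under either siRNA, which held for 18.6% of genes in si-control and 18.0% in si-dnmt. The median log2 fold change of the members was -1.10 in si-control and -0.89 in si-dnmt, while that of all genes was -0.01 in si-control and 0.01 in si-dnmt.

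Cavin2 fell most. Its si-control libraries went from 186, 187, 389 and 383 CPM without cytokine to 35.8, 40.8, 97.1 and 93.5 CPM with TNF + IFN, a 4.29-fold lower level (log2 fold change -2.10 ± 0.31, adjusted p = 3.1e-06). In si-dnmt it went from 273, 296, 371 and 368 CPM to 60.6, 54.5, 117 and 106 CPM (-1.95 ± 0.31, adjusted p = 9.8e-06). Within each group the 2 replicate sets stood apart, with replicates 3 and 4 above replicates 1 and 2, and the fall was seen in both: -2.27 and -2.02 in si-control, -2.30 and -1.73 in si-dnmt.

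Cav1 fell from the values above to 315, 380, 468 and 465 CPM in si-control, 2.51-fold (-1.33 ± 0.19, adjusted p = 1.2e-06), and in si-dnmt to 260, 265, 271 and 253 CPM (-1.54 ± 0.19, adjusted p = 1.4e-07). This last group was the lowest of all 8 and the narrowest. Cav2 fell less than its partner, 1.84-fold in si-control (-0.88 ± 0.19, adjusted p = 0.00039) and by -0.57 ± 0.19 in si-dnmt (adjusted p = 0.017). The last call rests on 1 library: without si-dnmt + TNF + IFN replicate 4, at 53.8 CPM, it was -0.48 with an adjusted p of 0.066.

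Ehd2 had the smallest spread and the lowest adjusted p of the members. It went from 540, 581, 648 and 607 CPM to 251, 248, 219 and 230 CPM in si-control (-1.32 ± 0.08, adjusted p = 2.7e-13) and from 464, 496, 470 and 467 CPM to 232, 232, 247 and 239 CPM in si-dnmt (lower by 2.0-fold, adjusted p = 1.0e-10). The 2 siRNAs thus ended at the same level, with group means of 237 CPM in each. Cavin1 fell by 0.76 on the log2 scale in si-control and by 0.78 in si-dnmt, each ± 0.15, and Cavin3 by 0.58 and 0.69, each ± 0.12 (adjusted p between 3.3e-05 and 0.00022 for these 4). Cavin3 was the member with the smallest change in si-control.

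TNF alone lowered the transcripts of part of the coat. In si-control it lowered 3 of 6 members, Cavin1, Cavin2 and Ehd2, against 14.6% of all genes called lower. Ehd2 had 293, 314, 228 and 248 CPM with TNF, all under its untreated libraries (-1.13 ± 0.08, adjusted p = 4.0e-11). Cavin2 had 113, 107, 151 and 144 CPM (-1.15 ± 0.31, adjusted p = 0.0047), also without overlap. Cavin1 had 566, 554, 441 and 491 CPM against 625, 569, 911 and 823 CPM untreated (-0.51 ± 0.15, adjusted p = 0.0085), and without si-control replicate 3 its adjusted p was 0.053. The caveolins and Cavin3 did not pass: Cav1 was at -0.23 ± 0.18, Cav2 at -0.21 ± 0.19 and Cavin3 at -0.11 ± 0.12.

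That result for the caveolins hides opposite responses in the replicate sets. In replicates 1 and 2, TNF took Cav1 in si-control from 662 and 912 CPM to 953 and 1054 CPM, and in replicates 3 and 4 from 1209 and 1309 CPM to 736 and 736 CPM. Fitted within the sets, the log2 fold changes were 0.37 and -0.78, and their difference of -1.13 ± 0.15 had an adjusted p of 3.3e-06 in edgeR's test of the sets, which called 16.1% of all genes. Cav2 behaved in the same way, from 177 and 157 to 208 and 187 CPM (0.26) and from 245 and 252 to 169 and 153 CPM (-0.63), with a difference of -0.87 ± 0.15 (adjusted p = 0.00019). Cavin1, Cavin2 and Ehd2 also differed between the sets (adjusted p = 5.0e-05, 0.00011 and 0.0014), but their values were negative in both. Cavin1 was at -0.08 in replicates 1 and 2 (adjusted p = 0.57) and at -0.90 in replicates 3 and 4, so its call rests on the latter. Cavin3 did not pass the test of the sets (adjusted p = 0.12). That test was chosen after seeing the data. Like the fits within a set, it takes its error from 2 libraries a group in each set. These p-values thus measure spread within a set, not between repeats of a set. In replicates 3 and 4 alone all 6 members were called lower, where 44.4% of genes were called in either direction, and in replicates 1 and 2 alone Cavin2 and Ehd2 were called lower and Cav1 higher, where 37.2% were called. What distinguishes the sets is not in the labels, so its part was not tested.

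**Figure D3:**
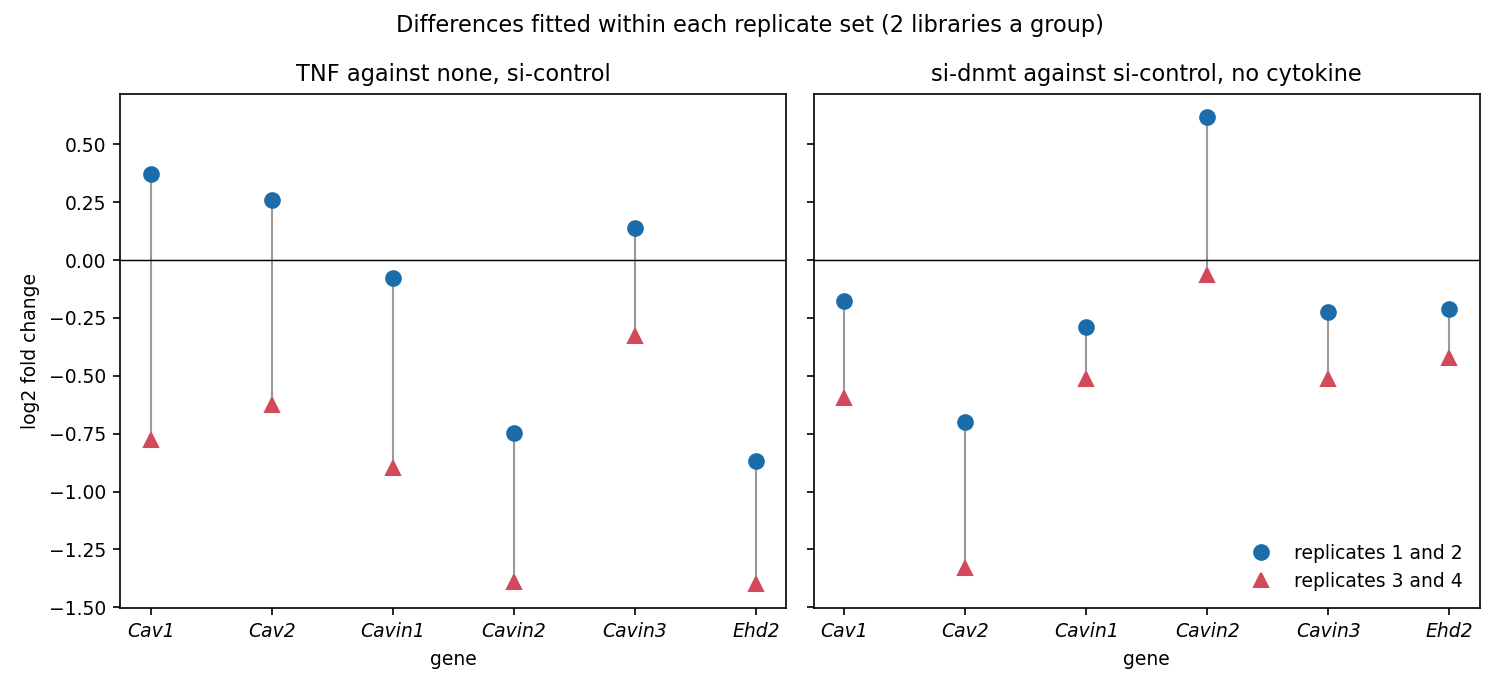
Log2 fold change (y axis) of each coat gene (x axis) fitted within replicates 1 and 2 (circles) and within replicates 3 and 4 (triangles), for TNF in si-control (left) and for si-dnmt against si-control without cytokine (right). With TNF, Cav1, Cav2 and Cavin3 lie above 0 in replicates 1 and 2 and below 0 in replicates 3 and 4; in the right panel Cavin2 alone changes sign.

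In si-dnmt, TNF lowered 3 of 6 members, Cav1, Cavin1 and Ehd2, against 9.54% of all genes. Ehd2 had 288, 298, 261 and 283 CPM (-0.75 ± 0.08, adjusted p = 1.5e-07). The other 2 calls were near the threshold. Cav1 was at -0.53 ± 0.18 (adjusted p = 0.040), and its adjusted p was between 0.053 and 0.12 without any 1 of si-dnmt replicates 2, 3 and 4 or si-dnmt + TNF replicates 1, 3 and 4. Cavin1 was at -0.41 ± 0.15 (adjusted p = 0.045), and between 0.056 and 0.14 without any 1 of si-dnmt replicates 1, 3 and 4 or any 1 si-dnmt + TNF library. These 2 genes also differed between the sets in si-dnmt, by -0.60 and -0.48 (adjusted p = 0.022 and 0.034, with 3.13% of all genes called). Cavin2 had 192, 198, 211 and 202 CPM, none of which overlapped the untreated libraries, with a log2 fold change of -0.71 ± 0.30 that did not pass (adjusted p = 0.099); with the replicate number as a block it passed (-0.67, adjusted p = 0.0015; 34.3% of genes called).

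IFN alone moved the transcripts of the coat least. In si-control only Ehd2 was called lower, at 457, 502, 493 and 537 CPM against 540 to 648 CPM untreated (-0.26 ± 0.08, adjusted p = 0.034; 5.92% of all genes called lower). Without si-control replicate 2, si-control replicate 3 or si-control + IFN replicate 1 its adjusted p was 0.052, 0.11 or 0.070. In si-dnmt edgeR called 0 of 6 members (2.35% of all genes called lower), with 0 at an unadjusted p under 0.05 and 0 by DESeq2. The libraries of Cav2 and Cavin2 nevertheless lay wholly lower with IFN in si-dnmt, as did those of 5.89% of all genes. Within replicates 1 and 2 Cav1 was at -0.36 and Cavin2 at -0.47, and within replicates 3 and 4 at -0.31 and -0.49. Both had an adjusted p of at most 0.031 in each set (edgeR). The share of all genes called in these fits is not given, so nothing is read from these calls. The fitted values of all 6 were negative under both siRNAs, from -0.48 ± 0.30 for Cavin2 in si-dnmt to -0.01 ± 0.15 for Cavin1 in si-dnmt. With the replicate number as a block, Cavin2 passed in si-dnmt (-0.48, adjusted p = 0.031; 19.0% of genes called in either direction).

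The summed level of 10 endothelial markers moved in the same direction as the coat genes. In si-control it was 5673 to 8240 CPM without cytokine, 3754 to 5476 CPM with TNF, 4514 to 6774 CPM with IFN and 3159 to 4131 CPM with TNF + IFN, and in si-dnmt it went from 5543 to 8048 CPM without cytokine to 2619 to 3816 CPM with TNF + IFN. All 10 markers had counts in every group. For 3 lymphatic markers the sum was 414 to 810 CPM in si-control and 577 to 597 CPM in si-control + TNF + IFN. In si-dnmt it was 280 to 575 CPM without cytokine and 352 to 531 CPM with TNF + IFN. The summed level of 5 fibroblast markers, mostly Dcn, was 1.68 to 2.71 CPM in si-control and 15.0 to 57.7 CPM in si-control + TNF. That of 3 adipocyte markers, which is in effect Fabp4, also known from capillary ECs, since Adipoq was at 0 and Plin1 had at most 1 count, was 180 to 1276 CPM in si-control and 38.5 to 144 CPM in si-control + TNF + IFN. The part of any of these in the members' responses was not tested.

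No member's response to a cytokine was shown to depend on the siRNA. In the siRNA-by-cytokine interactions edgeR called 0 of 6 members for TNF (0.0328% of all genes called), 0 for IFN (0.0459%) and 0 for TNF + IFN (0.531%), and DESeq2 also called 0 in each. At an unadjusted p under 0.05 there was 1 member, Ehd2, for TNF and for TNF + IFN and 0 for IFN. The Ehd2 response to TNF + IFN was less negative in si-dnmt by 0.33 ± 0.12 on the log2 scale (95% interval 0.09 to 0.57, adjusted p = 0.28), and to TNF by 0.39 ± 0.12 (0.15 to 0.63, adjusted p = 0.35). For Cav2 with TNF + IFN the difference was 0.30 ± 0.27 (-0.24 to 0.85, adjusted p = 0.84), an interval that leaves room for either sign. Replicates 3 and 4 alone gave 2 calls for TNF, Cavin2 (0.55) and Ehd2 (0.62), and 1 for TNF + IFN, Ehd2 (0.54), where 8.04% and 11.8% of genes were called.

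Whether the combined treatment exceeded the sum of the single ones on the log2 scale was asked by the TNF-by-IFN interaction. Here edgeR called 0 of 6 members in si-control (1.06% of all genes called) and 0 in si-dnmt (0.354%), as did DESeq2, with 2 members, Cav1 and Cavin3, at an unadjusted p under 0.05 under each siRNA. Cav1 had the largest departure in si-control, -0.84 ± 0.26 (95% interval -1.38 to -0.31, adjusted p = 0.15), and -0.68 ± 0.26 in si-dnmt (adjusted p = 0.53). With the replicate number as a block, Cav1 in si-control passed (-0.88, adjusted p = 0.026; 4.23% of genes called), and so did Cavin2 in si-dnmt (-0.86, adjusted p = 0.042; 1.82% called). In si-control, replicates 1 and 2 alone gave 5 calls, every member but Ehd2, all negative (10.6% of genes called), and replicates 3 and 4 alone gave 1, Cav1 at -0.39 (4.35% called). In si-dnmt the sets gave 3 calls (Cav1, Cavin1 and Cavin2; 4.80%) and 2 (Cav1 and Cavin2; 2.09%).

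The counts of Cav2 and Cav1 within a library give a ratio that needs no scaling between libraries. Without cytokine there were 26.7, 17.2, 20.3 and 19.2 Cav2 counts per 100 Cav1 counts in si-control and 14.6, 14.9, 11.3 and 12.4 in si-dnmt. With TNF + IFN there were 29.0, 27.8, 27.9 and 26.8 in si-control and 32.7, 26.8, 22.4 and 21.2 in si-dnmt. The groups with TNF + IFN thus lay above those without cytokine under both siRNAs, since Cav1 fell by more than Cav2. As log2 ratios the change was 0.44 in si-control and 0.94 in si-dnmt. Each had p = 0.0286 in a two-sided exact permutation test (n = 4 in each group), the smallest p that 70 assignments allow. After adjustment over 6 tests this was 0.0857, which misses the threshold. With no other comparison at the smallest p, these could not have passed, so the miss decides nothing. Paired by replicate number, the ratio was higher with TNF + IFN in 4 of 4 pairs under each siRNA, with an exact sign-flip p of 0.125, the smallest that 16 sign flips allow, and 0.25 after adjustment, so 4 pairs cannot pass. TNF in si-dnmt gave 0.32 (exact p = 0.0857, adjusted p = 0.171), and the other 3 comparisons lay between -0.08 and 0.08.

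**Figure D4:**
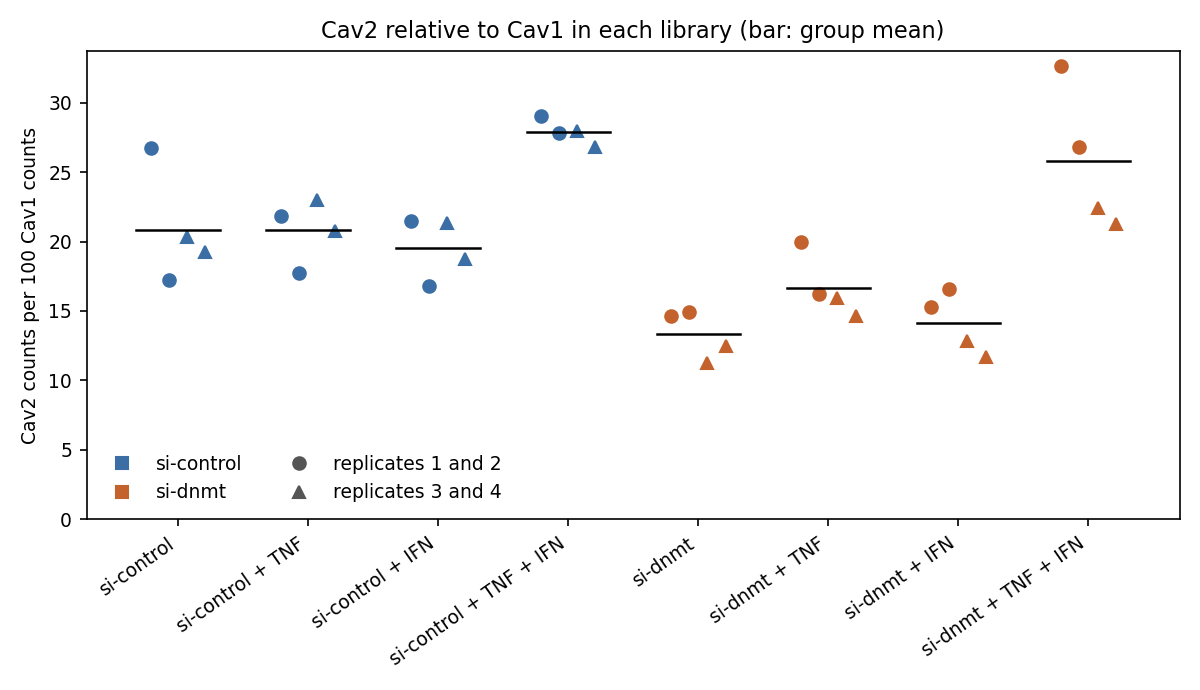
Cav2 counts per 100 Cav1 counts (y axis, from 0) in each of the 32 libraries by group (x axis), with si-control in blue and si-dnmt in orange, circles for replicates 1 and 2, triangles for replicates 3 and 4 and bars for means of 4 libraries. The 4 si-control + TNF + IFN libraries sit between 26.8 and 29.0 and the 4 si-dnmt libraries without cytokine between 11.3 and 14.9.

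Between the siRNAs the same ratio is a description. It was lower in si-dnmt by 0.64 on the log2 scale without cytokine, 0.33 with TNF and 0.48 with IFN, and by 0.13 with TNF + IFN. The siRNAs overlapped with TNF and with TNF + IFN. The si-dnmt + TNF + IFN libraries of replicates 1 and 2 lay above those of replicates 3 and 4.

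Ordered by mean level, the 8 groups did not run in the same way for every member. For Cav2 the 4 si-control groups came first, from 208 ± 47.8 CPM without cytokine to 113 ± 18.0 CPM with TNF + IFN (SD, n = 4), and then the 4 si-dnmt groups, from 100 ± 5.73 to 67.6 ± 13.6 CPM. Every group overlapped the next in this order. For Cav1 the si-control + TNF + IFN group came seventh, at 407 ± 73.8 CPM, and only the step from it to si-dnmt + TNF + IFN, at 262 ± 7.38 CPM, was free of overlap. Cavin1 and Cavin3 likewise showed no overlap only between their seventh and last groups. Cavin2 was highest in si-dnmt, at 327 ± 50.04 CPM, and lowest in si-control + TNF + IFN, at 66.8 ± 33.0 CPM, and its only step without overlap was from si-dnmt + TNF, at 200.5 CPM, to si-control + TNF, at 129 CPM. For Ehd2 the 4 groups with TNF came last, from 283 ± 15.4 down to 237 ± 15.2 CPM, and did not overlap the 4 without, of which the lowest was si-dnmt + IFN at 441 ± 19.7 CPM. The step from si-control, at 594 CPM, to si-control + IFN, at 497 CPM, was the other one free of overlap for Ehd2.

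Over the 32 libraries, the log2 CPM of the members rose and fell together to different degrees. These libraries share groups, replicate sets and scaling, so the correlations are descriptions. Cav1 and Cavin1 were closest (Pearson r = 0.88, Spearman rho = 0.84), followed by Cav1 and Cavin3 (r = 0.87) and Cavin1 and Cavin3 (r = 0.85). The 2 caveolins had r = 0.80. Cav2 and Cavin2 were least alike (r = 0.27, rho = 0.20). Once group means were subtracted, Cav1 and Cavin1 still had r = 0.78 and Cav1 and Cav2 0.72, while Cavin2 and Ehd2 went from 0.75 to -0.05.

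Among 10367 genes with a mean of at least 5 CPM, those most like Cav2 over the 32 libraries were Lrch2 (r = 0.93, rho = 0.95), Hnrnpll (0.93), Ube2e3 (0.93), Fam117b (0.92) and Ntan1 (0.91). For the other members the closest gene was Gap43 for Cav1 (r = 0.94), Hspa12b for Cavin1 (0.93), Gria3 for Cavin2 (0.96), Ptov1 for Cavin3 (0.93) and Mtch1 for Ehd2 (0.97). Hspa12b and Gria3 stayed close to their member once group means were subtracted (r = 0.91 and 0.94), and the genes like Cav2 had r = 0.61 to 0.76.

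Genes that work beside the coat were called in both directions with TNF + IFN in si-control, where 45.2% of all genes were called in either direction. Of 5 relatives of the members, 3 were tested: the recycling ATPase Ehd1 rose (0.61 ± 0.19, adjusted p = 0.012), Ehd4 fell (-0.64 ± 0.23, adjusted p = 0.021) and Ehd3 did not pass. The Ehd4 call was lost without any 1 of si-control replicates 1 and 2 or si-control + TNF + IFN replicates 3 and 4 (adjusted p 0.060 to 0.070). Of 8 tested partners in membrane shaping and scission, 2 rose and 1 fell. Pacsin1, which bends membranes, had 3 counts over the 4 si-control libraries without cytokine and 1034 over those with TNF + IFN, a ratio of 346 (95% exact interval 118 to 1682, counting error only; adjusted p = 4.8e-13). Pacsin2, its relative found at caveolae, was lower by 0.25 ± 0.08 (adjusted p = 0.0094). Nostrin, which binds endothelial nitric oxide synthase, was higher by 0.66 ± 0.27 (adjusted p = 0.047), a call lost without any 1 of 6 libraries (si-control replicates 1, 3 and 4 and si-control + TNF + IFN replicates 2, 3 and 4; adjusted p 0.059 to 0.14). With the replicate number as a block 5 of these 8 partners were called, as were 55.1% of all genes.

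Of 15 tested genes of endothelial proteins that are held in caveolae, 8 fell and 1 rose with TNF + IFN in si-control. Their median log2 fold change was -0.38 against -0.01 over all genes. The water channel gene Aqp1 went from 223 ± 8.95 to 0.370 ± 0.177 CPM (-9.20 ± 0.68, adjusted p = 6.8e-12). Ednrb, the endothelin B receptor gene, fell by 3.43 ± 0.45 on the log2 scale (adjusted p = 3.9e-07), and Slc7a1, an arginine transporter gene, rose by 1.22 ± 0.13 (adjusted p = 9.8e-09). The flotillins, which form other membrane domains, gave 1 call of 2, Flot1 (-0.59 ± 0.20, adjusted p = 0.016; 0.063 to 0.087 without si-control replicate 3, si-control replicate 4 or si-control + TNF + IFN replicate 2), and 2 with the block.

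Of 9 tested genes of the clathrin coat, the other major coat of the endothelial surface, 1 rose and 3 fell with TNF + IFN in si-control, with 7 called under the block. Picalm, a clathrin adaptor gene, rose by 0.58 ± 0.11 (adjusted p = 7.2e-05). The adaptor subunit genes Ap2a2 and Ap2s1 were lower by 0.38 ± 0.14 and 0.31 ± 0.11 (adjusted p = 0.026 and 0.022). The Ap2a2 call was lost without any 1 of si-control replicates 3 and 4 or si-control + TNF + IFN replicates 1 and 2 (adjusted p 0.069 to 0.095), and the Ap2s1 call without si-control replicate 3 or si-control + TNF + IFN replicates 3 or 4 (0.056 to 0.13).

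Between the siRNAs with TNF + IFN, where 17.7% of all genes were called, the calls in the same lists were 1 of 3 relatives, 0 of 8 partners, 4 of 15 caveolar proteins, 0 of 2 flotillins and 2 of 9 clathrin genes. Ehd1 was higher in si-dnmt (0.63 ± 0.19, adjusted p = 0.023), lost without any 1 of si-control + TNF + IFN replicates 1 and 2 or si-dnmt + TNF + IFN replicates 3 and 4 (adjusted p 0.056 to 0.11). Bdkrb2, the bradykinin receptor gene, was higher by 2.89 ± 0.36 (adjusted p = 1.8e-06) and Ednrb by 1.62 ± 0.42 (adjusted p = 0.0073), while Nos3, the endothelial nitric oxide synthase gene whose product binds Cav1, was lower by 0.76 ± 0.12 (adjusted p = 7.6e-05). Of the clathrin light chains, Clta was lower by 0.28 ± 0.07 (adjusted p = 0.0062) and Cltb higher by 0.44 ± 0.16 (adjusted p = 0.049), the latter lost without any 1 of the si-control + TNF + IFN libraries or of si-dnmt + TNF + IFN replicates 3 and 4 (adjusted p 0.051 to 0.20). With the block, 2 relatives, 2 partners and 1 flotillin were called, against 30.8% of all genes. At an unadjusted p under 0.05 edgeR had 1 partner, Pacsin2, and 0 flotillins, and DESeq2 called 0 of either.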

How the data were processed

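Bulk RNA-seq was made from 32 libraries, 4 in each of 8 groups. Per the labels, the authors trimmed reads (cutadapt 4.9) and counted them per gene with featureCounts, and the deposited values are raw counts. Not given in the sources used here are the aligner, genome build, annotation and strand setting. The library tables and the merged table held the same values in every shared cell. The comparisons of the authors were not used.

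Counts were fitted here with edgeR 4.0.16 (R 4.3.3, limma 3.58.1): 1 quasi-likelihood fit of all 32 libraries with 8 group means, TMM factors (0.880 to 1.09), and genes kept by filterByExpr with a minimum count of 10, which left 15254 genes and at least 99.9% of counts. P-values were adjusted by Benjamini-Hochberg over all genes tested, and an adjusted p under 0.05 was called. CPM are TMM-scaled. The steps were tested on simulated data drawn without replicate sets, so that test does not cover their part. Alternatives were other scalings, no filter, DESeq2 1.42.0, the contrast's own groups, a replicate block, each replicate set and leaving out each library.

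The labels number replicates 1 to 4 in every group, and same-numbered libraries deviated from their group means together in 112 of 112 pairs (r 0.297 to 0.617). In 70 of the 112 the best match was the library of the same number. The other number of the same set deviated together about as closely (median 0.409 against 0.415). Deviations from a group mean cancel within the group, so the median of -0.41 with the other set follows from these values. The numbers thus mark the replicate sets, while pairing within a set was not settled. The main fit holds no term for the number, and the replicate block is an alternative.

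The members, the gene lists and the tests were chosen with earlier results of these data known. The text names the members, Dnmt1, Cdh5 and Pecam1, up to 3 called genes of each list with the largest change in each of 2 contrasts, the genes most correlated with a member, and the tested neighbours of Cav2 and Cav1. Other names, the marker genes among them, were given after their values were seen. Antisense genes overlap Cav1 and Cav2 (Gm15581), Cavin2 (9330175M20Rik) and Cavin3 (Gm45667), with at most 6 counts in a library. Gm45667 alone shares exons with its member, where reads cannot be told apart without strand.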

Additional observations from a re-analysis of the deposited data

Results flagged for a closer look

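Of 56 sets of 4 libraries tested for a library apart from the other 3 (6 coat genes and the Cav2 to Cav1 ratio in 8 groups), 1 stood out: Cavin3 in si-dnmt + TNF + IFN, where replicate 1 had 16.6 CPM and the others 22.0 to 22.4 CPM. Chance alone marks about 1 in 20 such groups. Without that library Cavin3 was still called lower with TNF + IFN in si-dnmt.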

How the results depend on the processing

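No alternative reversed a Cav2 difference between the siRNAs, and the other scalings, DESeq2 and no filter left its values within the spread of the libraries. The replicate sets moved it, as given above: -0.70 and -1.33 without cytokine, -0.57 and -1.36 with IFN, -0.34 and -1.16 with TNF + IFN. The 6 calls with TNF + IFN were made under every alternative in si-control, and 5 to 6 in si-dnmt with 1 library left out. Members called with TNF in si-control numbered 6 in replicates 3 and 4 alone and 2 to 3 with 1 library left out. With IFN in si-control they numbered 0 with no filter, 0 with the contrast's own groups, 2 and 3 in the sets and 0 to 1 with 1 library left out. With TNF in si-dnmt they numbered 1 with no filter, 5 in replicates 3 and 4 and 1 to 2 with 1 left out, and with IFN in si-dnmt 2 in each set. Where this section gives a count without the share of all genes called in the same fit, nothing is read from that count. The replicate block gave 1 call with IFN in si-dnmt and 1 in each TNF-by-IFN interaction, the values printed above, and beyond those named above changed no other tested call of a member. The interaction counts in the sets were 2 (siRNA by TNF), 1 (siRNA by TNF + IFN), 5 and 1 (TNF by IFN, si-control), and 3 and 2 (si-dnmt), against 0.

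Among the cytokine responses, values whose sign turned in replicates 1 and 2 were Cav1 (0.37), Cav2 (0.26) and Cavin3 (0.14) with TNF and Cavin1 (0.0024) and Cavin3 (0.087) with IFN in si-control, and Cav2 (0.063) with TNF in si-dnmt. In replicates 3 and 4, Cavin1 turned with IFN in si-dnmt (0.00050). Between the siRNAs, Ehd2 turned in replicates 1 and 2 with TNF (-0.05) and with TNF + IFN (-0.11), and Cavin2 in replicates 3 and 4 without cytokine and with IFN. With 1 library left out, Cavin2 with IFN and Ehd2 with TNF or TNF + IFN also turned between the siRNAs, and Ehd2 with TNF + IFN did so with no filter. Of the interaction values 5 turned in replicates 1 and 2 and 4 in replicates 3 and 4. With 1 library left out, Cavin3 with TNF in si-control ran from -0.18 to 0.0068, Cavin1 and Cavin3 with IFN in si-control from -0.15 to 0.10 and from -0.13 to 0.065, and Cavin1 with IFN in si-dnmt from -0.089 to 0.074. The Cav2 to Cav1 ratio turned with TNF in si-control (-0.12 in replicates 1 and 2; -0.075 to 0.14 with 1 left out), with IFN in si-control (0.017 in replicates 3 and 4; -0.17 to 0.045) and with IFN in si-dnmt (-0.0041 to 0.17). None of these cytokine responses, ratios or interactions had passed its test over all libraries.

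List calls with TNF + IFN in si-control went from 3 partners to 1 with no filter, 5 with the replicate block and 1 in replicates 1 and 2, from 1 flotillin to 2, 2 and, with own groups, 0, and from 4 clathrin genes to 2 with no filter, 7 with the block and 2 with own groups. Between the siRNAs relatives went from 1 to 2 with the block and in each set, partners from 0 to 2, 2 and 1, flotillins from 0 to 1, 1 and 1, caveolar proteins from 4 to 7 and 8 in the sets, and clathrin genes from 2 to 1 with upper quartile scaling or own groups and 0 with no filter. With 1 library left out, relatives ran from 1 to 2 and flotillins from 0 to 1 in the first comparison, and relatives from 0 to 1 and clathrin genes from 1 to 3 in the second. The test of the sets and the alternatives for the lists were chosen after seeing the data, and the cause of these changes was not tested. With 4 libraries a group, the 95% interval of a Cav2 interaction spans more than 1 log2 unit.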

Other observations

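Cav2 and Cav1 lie 25.2 kb apart, start to start, on chromosome 6 of the GENCODE annotation. Of the tested neighbours, Tes, a focal adhesion gene that comes before Cav2, had log2 differences between si-dnmt and si-control of -0.55, -0.68, -0.58 and -0.66 (no cytokine, TNF, IFN and TNF + IFN), of which those without cytokine and with IFN did not pass edgeR's test (adjusted p = 0.073 and 0.053). St7, which starts 412 kb after Cav2, had -0.38, -0.62, -0.42 and -0.45, all called (adjusted p = 0.024, 0.00036, 0.012 and 0.0086 in edgeR's test). With TNF + IFN, 17.7% of all genes were called between the siRNAs. The Tes calls with TNF and with TNF + IFN were each lost without any 1 of 4 libraries. Without any 1 of 4 others, Tes with IFN was called. The St7 calls were lost without any 1 of 4 libraries in the state without cytokine and any 1 of 2 with IFN. Met and Capza2, which lie between Cav1 and St7, did not pass the test for the siRNA in any state. Capza2, a gene of the actin capping protein, was higher with TNF + IFN under both siRNAs (log2 fold changes 0.53 and 0.57, adjusted p = 9.2e-07 and 3.5e-07 in edgeR's test), where Cav1 and Cav2 were lower. The neighbours nearest to Cav2, D830026I12Rik and Gm4876, did not pass the test for the siRNA in any state. Their means over all libraries were only 1.96 and 0.910 CPM, so this says little about them.

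Once group means were subtracted, the genes that varied most like Cav2 between replicates were Esco2, Gmnn, Hmgn2, Hmgb2 and Dek (Pearson r between 0.926 and 0.944 over the 32 libraries). Esco2 and Gmnn have roles in DNA replication and sister chromatid cohesion, and Hmgn2, Hmgb2 and Dek encode chromatin proteins. The same 5 genes had r between 0.217 and 0.448 with Cav2 when the group means were left in. The libraries share replicate sets and scaling, and what these genes share with Cav2 was not tested.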
